A study of Mus musculus with 13 samples.

Results

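Thymic epithelial cells (TEC), the stromal cells in which T cells are made, attract and sustain T cell progenitors with secreted signals, and 7 genes of such signals are described here: the chemokines Ccl25, Cxcl12 and Ccl19, the growth factors Kitl and Flt3l, and the interleukins Il7 and Il15. They were taken by symbol, and all 7 were found among the 24394 genes of the count table. The study's title puts the question of how Foxn1, the transcription factor that TEC need, programs fibroblasts to TEC. RNA was sequenced from 13 mouse libraries in 6 groups. The iTEC groups are mouse embryonic fibroblasts (MEF) given Cre and taken 2 days (n = 2) or 10 days (n = 3) later, and cells at 12 days sorted as Epcam+ (n = 2) or Epcam- (n = 2). Fetal TEC from E15.5 embryos (n = 2) and untreated MEF from E13.5 embryos (n = 2) were the groups they were set against. The protocol names iFoxn1/+ primary MEF, with 1 inducible Foxn1 allele, passaged no more than 5 times, and a pPGK-Cre-bpA plasmid brought in by nucleofection. The labels give the genotype as N/A for every sample, and the sources used here do not give how fetal TEC were isolated.

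Ccl25 is known in the thymus as the ligand of Ccr9 and Cxcl12 as the ligand of Cxcr4, the receptors by which progenitors home to and move within the cortex, and Ccl19 binds Ccr7, which thymocytes use on their way to the medulla. Kitl (stem cell factor) and Flt3l act through the receptor kinases Kit and Flt3 of early progenitors. Il7 keeps early thymocytes alive and dividing through Il7r and Il2rg, and Il15, presented in trans on Il15ra, serves NK and other innate-like lymphocytes through Il2rb and Il2rg. Foxn1 is known to act on Ccl25 and Dll4 directly in TEC.

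In the mm10 build the genes lie on 6 chromosomes: Ccl25 at chr8:4325210-4360020 (plus strand), Il15 at chr8:82331632-82403222 (minus), Cxcl12 at chr6:117168535-117181367 (plus), Kitl at chr10:100015630-100100416 (plus), Il7 at chr3:7569994-7613760 (minus), Ccl19 at chr4:42754525-42756577 (minus) and Flt3l at chr7:45129788-45136432 (minus). The promoter table (RefSeq, GRCm38.p6) held 5 of the 7 genes, Il7 and Il15 being the others. The windows below run from 250 bases before to 50 bases after an annotated start and are shown because Ccl25, Kitl and Flt3l were called higher and Cxcl12 lower in the same iTEC groups. Capitals mark the letters GACGC, the core of the Foxn1 motif, or their reverse complement GCGTC.
Ccl25, upstream start, chr8:4324960-4325259, plus strand: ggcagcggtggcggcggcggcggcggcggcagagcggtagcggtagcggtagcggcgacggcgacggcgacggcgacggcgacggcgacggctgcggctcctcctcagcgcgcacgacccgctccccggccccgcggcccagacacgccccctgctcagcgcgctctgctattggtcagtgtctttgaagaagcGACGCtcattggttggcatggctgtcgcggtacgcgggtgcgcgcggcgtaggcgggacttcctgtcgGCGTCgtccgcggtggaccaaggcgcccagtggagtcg
Ccl25, downstream start, chr8:4349338-4349637, plus strand: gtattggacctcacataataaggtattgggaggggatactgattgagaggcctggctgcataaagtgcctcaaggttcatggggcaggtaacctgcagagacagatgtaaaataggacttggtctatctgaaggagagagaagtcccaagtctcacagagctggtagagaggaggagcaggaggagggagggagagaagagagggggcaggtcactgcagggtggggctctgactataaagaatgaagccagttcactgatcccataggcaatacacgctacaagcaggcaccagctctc
Kitl, chr10:100015571-100015870, plus strand: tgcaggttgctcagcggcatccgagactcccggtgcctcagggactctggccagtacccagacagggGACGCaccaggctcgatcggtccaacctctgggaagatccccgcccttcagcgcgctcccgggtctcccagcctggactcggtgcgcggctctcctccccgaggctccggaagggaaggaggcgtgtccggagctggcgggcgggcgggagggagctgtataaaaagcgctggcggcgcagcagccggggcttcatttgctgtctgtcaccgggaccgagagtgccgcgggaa
Flt3l, chr7:45136383-45136682, minus strand: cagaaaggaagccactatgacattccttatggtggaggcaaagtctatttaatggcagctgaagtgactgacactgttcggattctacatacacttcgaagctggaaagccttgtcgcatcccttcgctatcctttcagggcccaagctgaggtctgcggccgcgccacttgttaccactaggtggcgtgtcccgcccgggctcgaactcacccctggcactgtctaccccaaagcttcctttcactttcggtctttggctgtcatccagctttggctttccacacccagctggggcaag
Cxcl12, chr6:117168285-117168584, plus strand: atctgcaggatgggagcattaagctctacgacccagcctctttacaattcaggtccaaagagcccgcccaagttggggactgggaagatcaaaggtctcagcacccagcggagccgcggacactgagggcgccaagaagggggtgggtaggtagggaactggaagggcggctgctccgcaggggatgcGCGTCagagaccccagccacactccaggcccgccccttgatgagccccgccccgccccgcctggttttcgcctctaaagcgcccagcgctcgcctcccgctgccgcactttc
The upstream Ccl25 window held GACGC once on each strand, with first bases 56 bases before and at position 12 after the start. Kitl held it 183 bases before the start and Cxcl12 62 bases before it, on the opposite strand. Neither the downstream Ccl25 window nor the Flt3l or the Ccl19 window held it. GACGC on either strand was in 27.2% of all 32851 promoters of the table, and 8.15% held it at least 2 times. The letters are thus common, they were present before both a gene called higher and a gene called lower, and the counts do not tell which Ccl25 start was used.

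Libraries held 35805780 to 86465460 counts. Levels are given in CPM, counts scaled to a common library total with TMM factors, in which 3 counts of 1 library correspond to 0.0300 to 0.0776 CPM. Foxn1 had 382 and 299 CPM at day 2, 440, 431 and 422 CPM at day 10, 326 and 292 CPM in Epcam+ cells, 468 and 391 CPM in Epcam- cells and 362 CPM in both fetal TEC libraries, against 18.3 and 12.997 CPM in MEF. Epcam itself stood at 4.80 and 30.6 CPM in Epcam+ cells against 0.560 and 0.290 CPM in Epcam- cells, while fetal TEC had 312 and 574 CPM. Day 10 libraries had 5.03 to 5.53 CPM, so the lower Epcam+ library did not exceed them. Some libraries stand apart. Epcam+ replicate 2 and both fetal TEC libraries held relatively few reads of long transcripts (Spearman correlation of a gene's deviation with transcript length -0.408 to -0.367, against 0.238 to 0.354 in the other 10 libraries). Both Epcam+ libraries differed from each other: 8 TEC markers summed to 2820 CPM in replicate 1 and 27297 CPM in replicate 2, and 8 fibroblast markers to 30227 and 2831 CPM. At day 10 the TEC markers summed to 3105 to 3425 CPM and the fibroblast markers to 12627 to 13598 CPM. Xist was at 688 to 2475 CPM in Epcam- cells and MEF but at most 1.27 CPM in the other iTEC libraries and at 6.17 and 10.6 CPM in fetal TEC, so the sex of the embryos and the group cannot be told apart where MEF or Epcam- cells are set against the other iTEC groups or MEF against fetal TEC. Nothing says that replicates were separate cultures or animals, so p-values may measure technical spread only, and in bulk RNA fewer cells of a type and less RNA per cell cannot be told apart.

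Ccl25, Kitl and Flt3l were called higher in day 10 and both day 12 iTEC groups than in MEF, while Cxcl12 was called lower, and neither Il7 nor Il15 was called in any of the iTEC groups against MEF. Fetal TEC had another pattern: Cxcl12, Il7 and Il15 were called higher than in MEF along with Ccl25 and Flt3l, and Kitl was not called. A gene is called where its adjusted p (edgeR's quasi-likelihood test over all 17004 tested genes, Benjamini-Hochberg) is under 0.05. Of the 7 genes 6 passed the filter on low counts, and Ccl19 did not, so counts of calls are over these 6.

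At day 2 against MEF 3 of 6 genes were called, beside 5.52% of all tested genes. At day 10 against MEF 4 of 6 were called, beside 16.0% of all genes, and at day 10 against day 2 also 4 of 6, beside 12.6%. Against MEF, 4 of 6 were called in Epcam+ cells, beside 20.3% of all genes, and 4 of 6 in Epcam- cells, beside 11.9%. Fetal TEC against MEF gave 5 of 6, but 57.8% of all genes were called there as well. Set against fetal TEC, 5 of 6 were called at day 10, beside 59.3% of all genes, and 5 of 6 in Epcam+ cells, beside 35.6%. In Epcam+ against Epcam- cells edgeR called 0 of 6, beside 0.259% of all genes. An unadjusted edgeR p under 0.05 was held by 3 of the 6 and by 3261 of all 17004 tested genes. The DESeq2 Wald test called 4 of the 6 there, beside 1794 genes over all. In both comparisons of fetal TEC with MEF and with day 10 most genes of any kind were thus called, and nothing is read from the number of members called there.

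**Figure D1:**
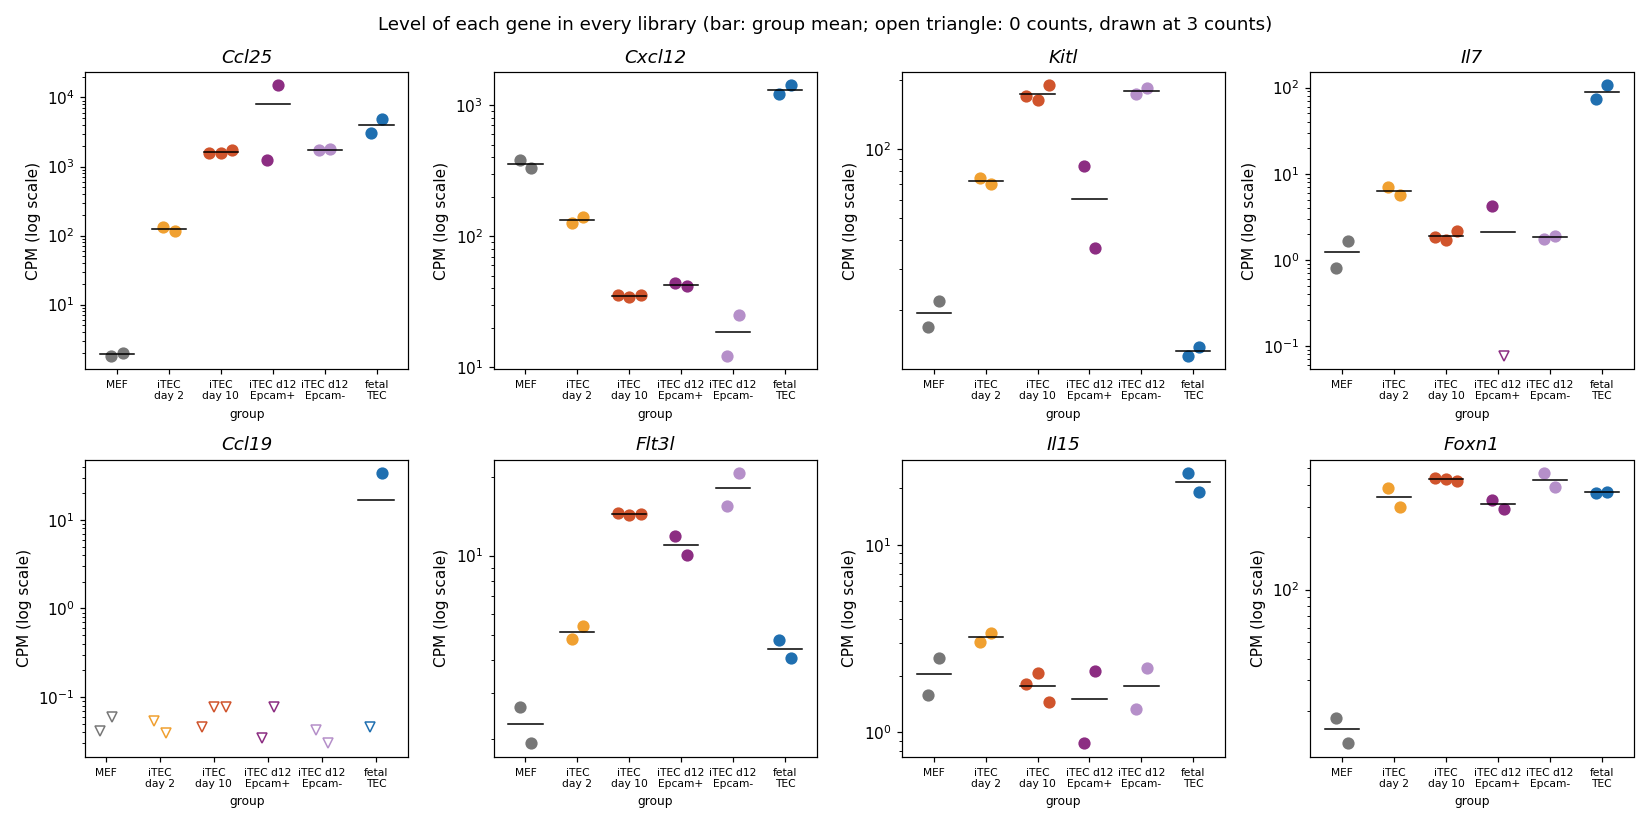
Level of each of the 7 genes and of Foxn1 in every library, in CPM on a log axis, by group (points: libraries; bars: group means; open triangles: 0 counts, drawn at 3 counts). Ccl25, Kitl and Flt3l lie higher in every iTEC library than in both MEF libraries, Cxcl12 lies lower, and Il7 and Il15 stand out in fetal TEC.

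Ccl25, the chemokine that draws Ccr9-bearing progenitors, had 1.82 and 2.03 CPM in MEF and was raised in every iTEC group. It stood at 132 and 117 CPM at day 2, at 1578, 1554 and 1725 CPM at day 10, at 1251 and 14955 CPM in Epcam+ cells, at 1725 and 1801 CPM in Epcam- cells, and at 3027 and 4871 CPM in fetal TEC. No iTEC or fetal TEC library came near the MEF level, and day 2 lay between MEF and all later groups. The change was 6.01 ± 0.99 on the log2 scale (edgeR ± standard error, 64.6-fold) at day 2 against MEF (adjusted p = 0.00734) and 3.70 ± 0.86 at day 10 against day 2 (adjusted p = 0.0203). Against MEF it was 9.71 ± 1.15 (840-fold) at day 10 (adjusted p = 0.000584), 12.04 ± 1.26 in Epcam+ cells (adjusted p = 0.000402), 9.84 ± 1.16 in Epcam- cells (adjusted p = 0.000715) and 11.00 ± 1.22 (2050-fold) in fetal TEC (adjusted p = 0.000202). The value in Epcam+ cells against MEF rests on unlike libraries, being 9.35 without replicate 2 and 12.92 without replicate 1, and it was called in both fits. By level, MEF and day 2 were followed by day 10 and Epcam-, whose ranges met at 1725 CPM, and then by fetal TEC, while the Epcam+ pair spanned all 3 of these.

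Against fetal TEC, Ccl25 was not called at day 10 (log2 change -1.29 ± 0.72, adjusted p = 0.144), although all 3 day 10 libraries lay below both fetal TEC libraries. Without either Epcam+ library, which is not part of that comparison but of the shared spread, it was called lower at day 10 (log2 change -1.27 in both fits, adjusted p = 0.000277), as it was with only those 2 groups in the fit (-1.30, adjusted p = 0.00407). The length offset, which takes out each library's trend with transcript length, gave -0.63 (adjusted p = 0.485). In Epcam+ cells against fetal TEC the log2 change was 1.04 ± 0.80 (adjusted p = 0.332), and 1 library decides its direction: it was -1.64 without Epcam+ replicate 2 (adjusted p = 0.000984) and 1.93 without Epcam+ replicate 1 (adjusted p = 0.000284). The call at day 2 against MEF was lost without MEF replicate 1 (adjusted p = 0.0828) or 2 (0.0922), and that at day 10 against day 2 without either day 2 library (0.172 and 0.178) or any 1 day 10 library (0.0508 to 0.0538). Exons of Elavl1 on the opposite strand overlap 204 bases of Ccl25 exons, and the sources used here do not give whether the counting used strand.

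Cxcl12, which binds Cxcr4 and is made by many fibroblasts as well as by TEC, moved the other way. It had 382 and 333 CPM in MEF, 127 and 141 CPM at day 2, 35.9, 34.3 and 35.5 CPM at day 10, 43.7 and 41.6 CPM in Epcam+ cells, 12.3 and 25.3 CPM in Epcam- cells and 1209 and 1411 CPM in fetal TEC. All 9 iTEC libraries lay below both MEF libraries, and both fetal TEC libraries lay above them. Cxcl12 fell by 1.42 ± 0.34 on the log2 scale at day 2 (adjusted p = 0.038), by 3.34 ± 0.31 (10.1-fold) at day 10 (adjusted p = 0.000153), by 3.07 ± 0.36 in Epcam+ cells (adjusted p = 0.000634) and by 4.25 ± 0.38 (19.0-fold) in Epcam- cells (adjusted p = 0.000158), each against MEF. It also fell by 1.92 ± 0.30 at day 10 against day 2 (adjusted p = 0.00282), so the order of levels was fetal TEC, MEF, day 2, then Epcam+ and day 10, and last Epcam-.

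Set against fetal TEC, Cxcl12 was lower by a log2 change of -5.22 ± 0.33 (37.2-fold) at day 10 (adjusted p = 1e-05) and -4.94 ± 0.39 (30.7-fold) in Epcam+ cells (adjusted p = 6.2e-05). Fetal TEC against MEF gave 1.87 ± 0.34 (3.67-fold, adjusted p = 0.00217). The sum of the fibroblast markers, given beside this gene, was 6574 and 7684 CPM at day 2, 12627 to 13598 CPM at day 10, 30227 and 2831 CPM in Epcam+ cells and 10361 and 11123 CPM in Epcam- cells, against 57050 and 61460 CPM in MEF, with all 8 markers above 0 in every library. In fetal TEC it was 4222 and 2632 CPM. There 7 of the 8 markers were called lower than in MEF and 1 higher, where 57.8% of all genes were called. The 1 called higher was Dcn, at 659 to 672 CPM in fetal TEC against 138 to 156 CPM in MEF. The part of the fibroblast markers in the result was not tested. The day 2 call was lost with the length offset (log2 change -1.28, adjusted p = 0.242) and without any 1 of the libraries of MEF, day 2, day 10 or fetal TEC (adjusted p up to 0.294). With the length offset the change in Epcam+ cells against MEF was -1.71 (adjusted p = 0.0489), that in fetal TEC against MEF 3.40 (adjusted p = 0.00145) and that at day 10 against fetal TEC -6.77 (adjusted p = 3e-05).

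Ccl19, a ligand of Ccr7, had no count in 12 of the 13 libraries and 1661 counts, or 33.7 CPM, in fetal TEC replicate 2. The other fetal TEC library was at 0, which allows up to 0.0459 CPM, so the 2 libraries of the group disagree and nothing was tested. Of the 50-base windows of its longest transcript 59.1% are also found in transcripts of Ccl19-ps1, Ccl19-ps3, Gm12407 or Gm2564, and the sources used here do not say where reads of such copies were counted. A level of 0 in this table is therefore uncertain for this gene.

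Kitl, the ligand of Kit, was raised in every iTEC group but not in fetal TEC. It had 16.8 and 21.8 CPM in MEF, 74.6 and 70.7 CPM at day 2, 169, 163 and 189 CPM at day 10, 84.0 and 37.1 CPM in Epcam+ cells, 173 and 185 CPM in Epcam- cells and 12.6 and 13.7 CPM in fetal TEC. Every iTEC library lay above all MEF and fetal TEC libraries, and the Epcam+ pair lay below day 10 and Epcam-. Against MEF the log2 change was 1.91 ± 0.37 (3.77-fold) at day 2 (adjusted p = 0.016), 3.17 ± 0.37 (9.01-fold) at day 10 (adjusted p = 0.00056), 1.65 ± 0.37 in Epcam+ cells (adjusted p = 0.016) and 3.21 ± 0.39 in Epcam- cells (adjusted p = 0.000796). Between day 10 and day 2 it was 1.26 ± 0.34 (adjusted p = 0.0378). Day 10 and Epcam- overlapped in range and stood highest, before day 2 and Epcam+, which also overlapped, then MEF and fetal TEC.

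Kitl was higher in iTEC than in fetal TEC, with a log2 change of 3.72 ± 0.39 (13.2-fold) at day 10 (adjusted p = 0.000113) and 2.20 ± 0.37 (4.59-fold) in Epcam+ cells (adjusted p = 0.0025). With the length offset these were 2.16 (adjusted p = 0.000528) and 1.67 (adjusted p = 0.00389), so both calls held with smaller values, which then lay below those of Flt3l (2.43 and 1.96). Fetal TEC against MEF gave -0.55 ± 0.36 (adjusted p = 0.208) and, with the length offset, 0.99 (adjusted p = 0.0281), so the direction there depends on how the length trend is treated. Without either Epcam+ library it was called lower (-0.56 in both fits, adjusted p = 0.0116 and 0.0117). The longest Kitl transcript, of 5648 bases, is the longest among the 7 genes. At day 2 against MEF the call was lost without any 1 MEF or day 2 library (adjusted p 0.0794 to 0.108), at day 10 against day 2 without any 1 day 2 or day 10 library, MEF replicate 2, either Epcam- library or fetal TEC replicate 2 (adjusted p up to 0.257), and in Epcam+ cells against MEF without either MEF library (0.0778 and 0.0829). That last change was 2.12 without Epcam+ replicate 2 and 0.94 without replicate 1, and 2.66 with the length offset (adjusted p = 0.000863).

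Flt3l, the ligand of Flt3, was called higher than in MEF at day 10 and in both day 12 groups. It had 2.65 and 1.93 CPM in MEF, 4.82 and 5.42 CPM at day 2, 14.5, 14.2 and 14.4 CPM at day 10, 11.9 and 10.0 CPM in Epcam+ cells, 15.47 and 20.6 CPM in Epcam- cells and 4.76 and 4.08 CPM in fetal TEC. The day 10 and day 12 libraries all lay above those of day 2, fetal TEC and MEF, and day 2 lay just above fetal TEC. Flt3l was not called at day 2 against MEF (log2 change 1.16 ± 0.37, adjusted p = 0.114). It was higher by 2.65 ± 0.37 (6.27-fold) at day 10 (adjusted p = 0.0014), by 2.26 ± 0.38 in Epcam+ cells (adjusted p = 0.00465) and by 2.98 ± 0.39 in Epcam- cells (adjusted p = 0.00124) against MEF, and by 1.49 ± 0.35 at day 10 against day 2 (adjusted p = 0.0212).

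Compared with fetal TEC, Flt3l was higher by 1.70 ± 0.35 (3.25-fold) at day 10 (adjusted p = 0.00353) and by 1.31 ± 0.37 in Epcam+ cells (adjusted p = 0.0229). Its change in fetal TEC against MEF lay at the threshold (0.95 ± 0.37, adjusted p = 0.0495). That last call was lost without any 1 library other than the 2 of Epcam+ cells (adjusted p 0.0525 to 0.207) and with the length offset (0.12, adjusted p = 0.798), where the value at day 10 against fetal TEC was 2.43 (adjusted p = 0.000541). The day 2 change was called without either Epcam+ library (1.16 in both fits, adjusted p = 0.0137 and 0.013), and the change at day 10 against day 2 was lost without any 1 day 2, day 10 or Epcam- library (adjusted p 0.053 to 0.218). Flt3l in Epcam+ cells against MEF was lost without MEF replicate 2 (adjusted p = 0.0505), and against fetal TEC without fetal TEC replicate 2 (0.0642) or day 10 replicate 1 or 2 (0.0507 and 0.0502). The annotated gene Gm45713 covers 856 bases of Flt3l exons on the same strand and has no row in the table, and 24.9% of the 50-base windows of Flt3l are shared with it.

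Il7, the interleukin on which early thymocytes depend, was high in fetal TEC alone. It had 0.802 and 1.66 CPM in MEF, 6.95 and 5.72 CPM at day 2, 1.86, 1.72 and 2.15 CPM at day 10, 4.23 and 0 CPM in Epcam+ cells, 1.74 and 1.89 CPM in Epcam- cells and 73.2 and 106 CPM in fetal TEC. Both day 2 libraries lay above all MEF, day 10 and Epcam- libraries, and Epcam+ replicate 2 had no count, which allows up to 0.0770 CPM. Il7 was higher in fetal TEC than in MEF by a log2 change of 6.19 ± 1.59 (72.8-fold, adjusted p = 0.010). It was lower than in fetal TEC by -5.55 ± 1.30 (46.9-fold) at day 10 (adjusted p = 0.00598) and by -5.38 ± 1.53 in Epcam+ cells (adjusted p = 0.0235).

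None of the changes of Il7 within the MEF and iTEC groups was called: 2.36 ± 1.35 at day 2 (adjusted p = 0.44), 0.63 ± 1.20 at day 10 (adjusted p = 0.81), 0.80 in Epcam+ cells (adjusted p = 0.681) and 0.56 in Epcam- cells (adjusted p = 0.869), each against MEF, and -1.73 ± 1.16 at day 10 against day 2 (adjusted p = 0.412). The Epcam+ pair, at 4.23 and 0 CPM, enters the spread of every Il7 test. Without Epcam+ replicate 1 or 2 the day 2 change was called (2.37 in both fits, adjusted p = 0.00176 and 0.00169), and so was the difference between day 10 and day 2 (-1.73 in both, adjusted p = 0.00255 and 0.00248). In Epcam+ cells against MEF the 2 libraries point opposite ways. Replicate 2, taken at its limit of 0.0770 CPM, lay at least 16.0-fold lower than the MEF mean. The log2 change without replicate 2 was 1.79. That limit covers counting error only, and replicate 2 had counts in 13326 of the genes with a length, against 16625 in replicate 1. Whether Il7 RNA was lost from replicate 2 in other ways was not tested. The call in fetal TEC against MEF was lost without either MEF library (adjusted p = 0.0711 and 0.061), and that in Epcam+ cells against fetal TEC without fetal TEC replicate 2 (0.0694). With the length offset the changes were 7.29 in fetal TEC against MEF (adjusted p = 0.00215) and -6.67 at day 10 against fetal TEC (adjusted p = 0.00103).

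Il15, which acts on NK and innate-like lymphocytes, likewise stood out in fetal TEC. It had 1.59 and 2.49 CPM in MEF, 3.03 and 3.40 CPM at day 2, 1.81, 2.08 and 1.45 CPM at day 10, 0.874 and 2.13 CPM in Epcam+ cells, 1.34 and 2.19 CPM in Epcam- cells and 24.1 and 19.0 CPM in fetal TEC. The MEF, day 10, Epcam+ and Epcam- ranges overlapped, and only day 2 lay slightly above them. Fetal TEC exceeded MEF by a log2 change of 3.40 ± 0.61 (10.6-fold, adjusted p = 0.00202). Against fetal TEC, Il15 was lower by -3.60 ± 0.52 (12.1-fold) at day 10 (adjusted p = 0.000619) and by -3.85 ± 0.62 (14.4-fold) in Epcam+ cells (adjusted p = 0.00193).

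Within the MEF and iTEC groups Il15 was not called in any comparison, with 0.66 ± 0.56 at day 2 (adjusted p = 0.667), -0.20 ± 0.51 at day 10 (adjusted p = 0.876), -0.45 in Epcam+ cells (adjusted p = 0.583) and -0.21 in Epcam- cells (adjusted p = 0.898) against MEF. At day 10 against day 2 its log2 change was -0.85 ± 0.50 (adjusted p = 0.337), and it was called with only those 2 groups in the fit (-0.88, adjusted p = 0.00361). With the length offset the change in fetal TEC against MEF was 2.05 (adjusted p = 0.015) and that at day 10 against fetal TEC -2.48 (adjusted p = 0.00311), so the calls held.

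**Figure D2:**
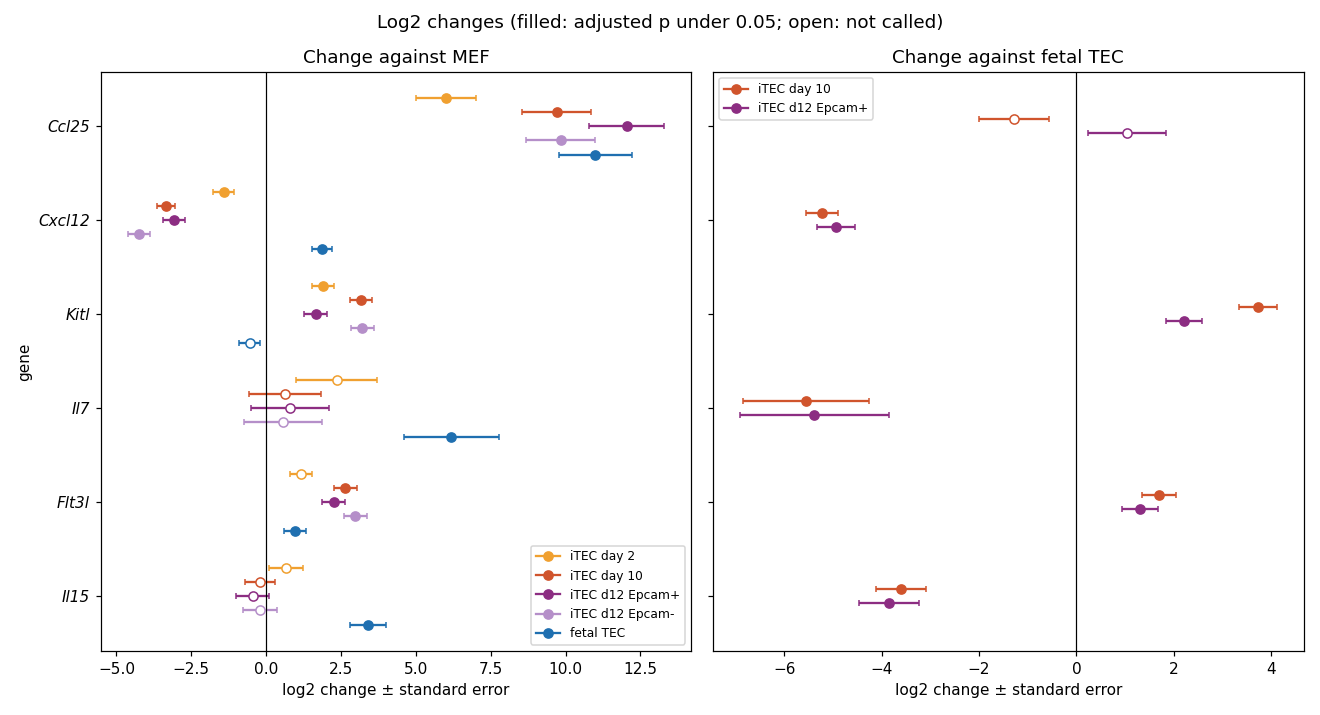
Log2 change ± standard error of the 6 tested genes against MEF (left) and against fetal TEC (right), with filled points where the adjusted p is under 0.05. Cxcl12 is the one gene that falls in all iTEC groups and is higher in fetal TEC, and Kitl lies above 0 against fetal TEC while Il7 and Il15 lie below.

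The fetal TEC libraries also carried RNA of other thymus cells, and these markers are given beside the fetal results for Il7, Il15, Cxcl12 and Ccl19. The 8 thymocyte and lymphocyte markers summed to 1272 and 545 CPM in fetal TEC, with none at 0. Their sums were 0.205 to 6.33 CPM in the iTEC libraries and 37.2 and 81.6 CPM in MEF, and Cd3e was at 0 in all of these. Nearly all of the MEF sums came from the leukocyte gene Ptprc, at 36.2 and 80.9 CPM. In MEF Cd3g, Rag1, Ptcra, Cd2 and Cd8a were at 0 as well. The 8 macrophage and dendritic cell markers summed to 431 and 507 CPM in fetal TEC, 172 and 10.1 CPM in Epcam+ cells, 1.67 to 3.39 CPM in the other iTEC libraries and 2491 and 2564 CPM in MEF. The 6 endothelial markers summed to 56.7 and 45.2 CPM in fetal TEC, with none at 0, 2.36 to 33.7 CPM in iTEC and 4.04 and 5.30 CPM in MEF. Nearly all of the iTEC sums came from Kdr, whose iTEC group means were 6.12 to 30.8 CPM, above the 5.67 CPM of fetal TEC. Each other endothelial marker had iTEC group means of at most 0.235 CPM and was higher in fetal TEC. The part of these cells in the fetal results was not tested. The 8 TEC markers themselves summed to 29650 and 44388 CPM in fetal TEC, 3105 to 3425 CPM at day 10 and 4.53 and 5.57 CPM in MEF.

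Per kilobase of longest transcript, which allows genes of 1 library to be set side by side, the make-up of the 7 signals turned over. Kitl and Cxcl12 have longer transcripts (5648 and 5627 bases) than Ccl25 (2549 bases). Both fetal TEC libraries and Epcam+ replicate 2 held relatively few reads of long transcripts. This trend was not removed here, so shares of Kitl and Cxcl12 in these libraries may be too low beside the others. In MEF, Cxcl12 made up 92.2% and 89.3% of their summed CPM per kilobase and Ccl25 0.973% and 1.20%. At day 2 the share of Ccl25 was 55.9% and 51.9%, that of Cxcl12 24.4% and 28.2% and that of Kitl 14.3% and 14.1%. At day 10 Ccl25 held 93.4% to 93.5%, Kitl 4.44% to 4.62% and Cxcl12 under 1%. The Epcam- pair, with 94.4% and 93.8% Ccl25, was like day 10, and the Epcam+ pair had 94.5% and 99.7%. In fetal TEC Ccl25 also led, with 82.8% and 85.3%, but there Cxcl12 held 15.0% and 11.2%, Il7 1.05% and 0.974% and Kitl 0.156% and 0.108%.

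**Figure D3:**
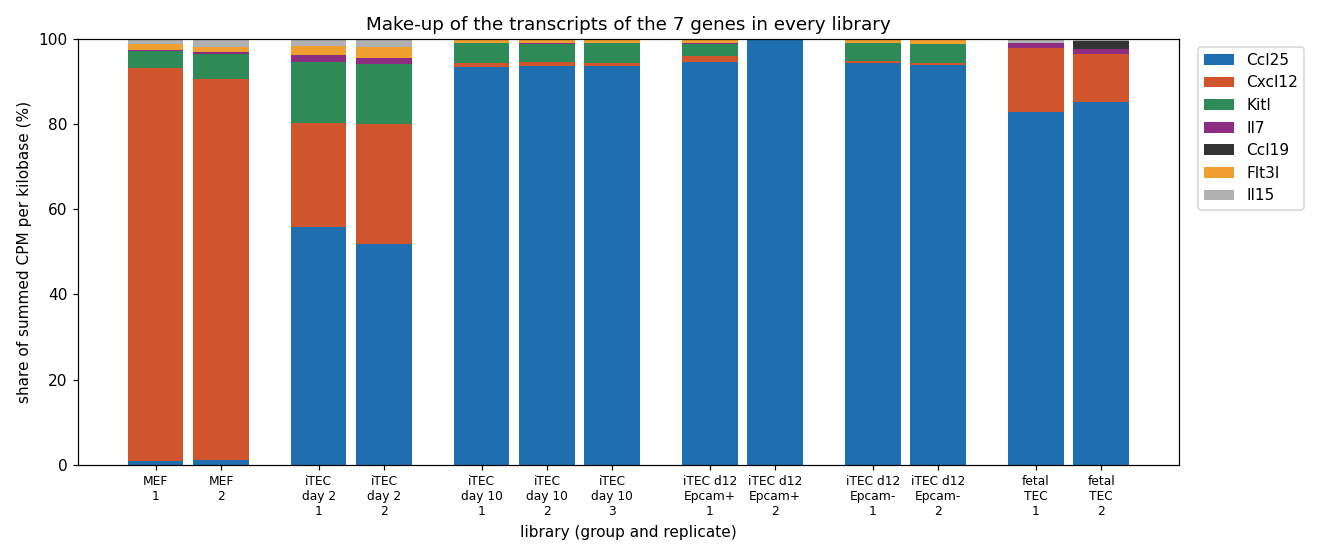
Share of each gene in the summed CPM per kilobase of the 7 genes, in percent, for every library (stacked bars). Cxcl12 fills most of both MEF bars, Ccl25 most of every bar from day 10 on, and fetal TEC keeps a Cxcl12 share of 15.0% and 11.2% that the day 10 and day 12 bars lack.

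Among the 23358 genes with a length, Ccl25 ranked 11485 and 11168 by CPM per kilobase in MEF, 1098 and 1245 at day 2, 17, 18 and 17 at day 10, 48 and 9 in Epcam+ cells, 9 in both Epcam- libraries, and 29 and 23 in fetal TEC. It was thus among the 50 most abundant transcripts of every library from day 10 on. Cxcl12 ranked 705 and 916 in MEF, 6978, 7104 and 6980 at day 10, and 247 and 279 in fetal TEC. Kitl ranked 9111 and 8196 in MEF, 2079, 2138 and 1843 at day 10, and 9696 and 9332 in fetal TEC. The trend with transcript length was not removed from these ranks either, which bears on fetal TEC and Epcam+ replicate 2.

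Epcam+ against Epcam- cells gave no call among the 6 genes, and both Epcam+ libraries often lay apart. The summed level of 4 Y-linked genes was 226 and 65.6 CPM in Epcam+ cells, but 0.0144 and 0 CPM in Epcam- cells. The sex of the embryos and the sort thus cannot be told apart here. Ccl25 had a log2 change of 2.20 ± 0.83 in Epcam+ against Epcam- cells (adjusted p = 0.214), but the level of Epcam+ replicate 1 was below, and that of replicate 2 far above, both Epcam- libraries. Its value was -0.49 without Epcam+ replicate 2 (adjusted p = 0.521) and 3.08 without replicate 1 (adjusted p = 2.09e-05). Kitl was lower in both Epcam+ libraries (-1.56 ± 0.37, adjusted p = 0.133) and was called without replicate 1 (-2.27, adjusted p = 4.6e-05) or replicate 2 (-1.09, adjusted p = 0.027), but with the length offset the value was -0.58 (adjusted p = 0.296). Cxcl12 was higher in both (1.18 ± 0.33, adjusted p = 0.185), and called without replicate 1 (1.14, adjusted p = 0.0182). Flt3l had -0.72 ± 0.37 (adjusted p = 0.312), Il7 0.24 (adjusted p = 0.958) and Il15 -0.24 (adjusted p = 0.842). The DESeq2 Wald test called Ccl25 (2.32, adjusted p = 0.0458), Cxcl12 (1.24, 0.00327), Kitl (-1.54, 0.000239) and Flt3l (-0.67, 0.0349). It called 1794 genes over all in this comparison.

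The genes most alike in pattern were taken by Pearson's r of log2(CPM + 0.5) over the 13 libraries, which share groups and depth. For Ccl25 these were Krt8 (r = 0.983), a simple epithelial keratin, Ovol1 (0.981), an epithelial transcription factor, and Dll4 (0.977), the Notch ligand of cortical TEC, while Foxn1 itself had 0.874. Kitl was most like Zpld1 (0.980), Adipor2 (0.978) and Cd151 (0.970), and Flt3l like Npnt (0.984), Pcdh17 (0.979) and Nlgn1 (0.970). For Cxcl12 the leading genes were Vangl1 (0.979), Tnfrsf11a (0.974), the receptor of RANKL, and Slc43a3 (0.968). Il7 was most like Tnnt2 (0.986), Aste1 (0.971) and Il18bp (0.965), and Il15 like Cep89 (0.977), Cmss1 (0.972) and 1110032F04Rik (0.971). Among the 6 genes themselves, Kitl and Flt3l had r = 0.850, Il7 and Il15 0.869, and Cxcl12 and Kitl -0.910. The 2 highest r were thus those of Il7 with Il15 and of Kitl with Flt3l. Cxcl12 was nearly as close to Il15 (0.800) and had 0.703 with Il7, and Ccl25 was closest to Flt3l (0.695). Il7, Il15 and Cxcl12 were all highest in the fetal TEC libraries, which weigh on these r. The trend with transcript length was not removed here either.

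Most receptors of these ligands are known from lymphoid progenitors. Of the 11 receptor genes 0 were called higher and 1 lower at day 2 against MEF, beside 5.52% of all genes called. Their median log2 change was 0.01 beside 0.00 for all tested genes, and the count says nothing particular of this list. At day 10 against MEF 3 were called higher and 2 lower, beside 16.0% of all genes called, with a median of 0.00 beside 0.00. Flt3 had no count in any MEF or iTEC library and could not be called there, though the median includes it. The 4 with the smallest p were Ackr4, a scavenger of Ccl25 and Ccl19 (20.96, 22.01 and 18.9 CPM at day 10 against 0.166 and 0.140 CPM in MEF, log2 change 7.05 ± 0.56, adjusted p = 8.49e-05), Il2rg (-6.69 ± 1.02, adjusted p = 0.00235), Il7r, which had no count at day 10 against 11.5 and 18.1 CPM in MEF (adjusted p = 0.00941), and Kit (9.27 ± 2.35, adjusted p = 0.0261). Kit, the receptor of Kitl, thus rose in the same cultures as its ligand, at 38.1, 38.0 and 33.9 CPM at day 10 against 0.0553 and 0.0602 CPM (4 and 3 counts) in MEF. Beside the lower Il2rg and Il7r stand the macrophage and dendritic cell markers, of which 8 of 8 were called lower at day 10 than in MEF (summed 1.73 to 2.38 CPM at day 10, with 5 of 8 at 0 in each library, against 2491 and 2564 CPM in MEF), and the leukocyte gene Ptprc, at 1.37 to 1.58 CPM at day 10 against 36.2 and 80.9 CPM in MEF. Their part in the result was not tested.

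In fetal TEC against MEF 7 of 11 receptors were called higher and 0 lower, where 57.8% of all genes were called, with a median of 7.23 (6.92 with genes without counts at their bound) beside 0.18 for all genes. Flt3 passed the filter on low counts through fetal TEC alone, so it could only be higher in that group. At day 10 against fetal TEC 0 were higher and 8 lower, where 59.3% of all genes were called, with a median of -7.00 beside -0.10, and in Epcam+ cells 0 were higher and 6 lower, where 35.6% were called. Il15ra, which presents Il15, had 2.66, 1.79 and 2.17 CPM at day 10 against 258 and 310 CPM in fetal TEC (-7.00 ± 0.61, adjusted p = 5.38e-05). Ccr7 (-7.69 ± 0.69, adjusted p = 5.92e-05), Il2rg (-12.06 ± 1.20, adjusted p = 9.8e-05) and Ackr4 (-2.24 ± 0.39, adjusted p = 0.00149) followed by p. Beside these receptor differences stand the thymocyte and the macrophage and dendritic cell markers given above. Of these, 8 of 8 and 8 of 8 were called lower at day 10 than in fetal TEC. Cd3e, Cd3g and Cd2 had counts in fetal TEC alone, so they could only be lower at day 10. The macrophage and dendritic cell markers summed higher in MEF (2491 and 2564 CPM) than in fetal TEC (431 and 507 CPM). Il15ra, Ccr7, Il2rg and Ackr4 had means of 284, 70.1, 379 and 97.5 CPM in fetal TEC. In MEF these were 4.46, 0.0439, 9.12 and 0.153 CPM. The part of the cells behind these markers was not tested.

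**Figure D4:**
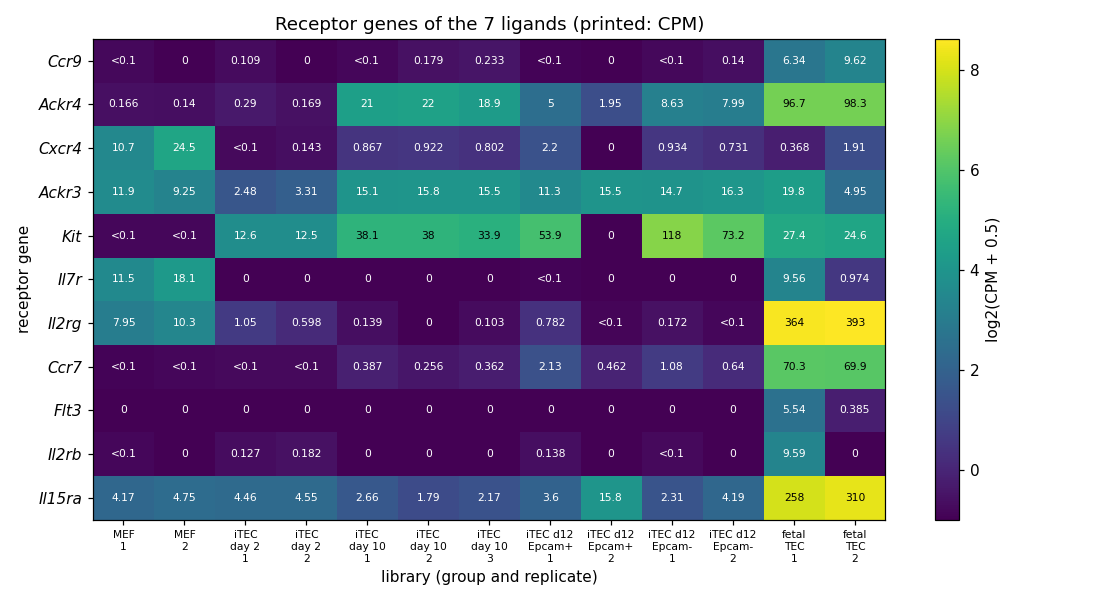
CPM of the 11 receptor genes in every library (printed values, with color on a log2(CPM + 0.5) scale). Kit and Ackr4 are present in day 10 iTEC and absent or near 0 in MEF, Kit is at 0 in Epcam+ replicate 2, and Il15ra, Il2rg and Ccr7 stand out in fetal TEC.

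Of 10 other thymus chemokines 2 were called higher and 0 lower at day 2 against MEF (median 0.57 beside 0.00), beside 5.52% of all genes called. These were Ccl5 (log2 change 7.42 ± 0.95, adjusted p = 0.00197) and Cxcl10 (585 and 622 CPM against 3.90 and 5.56 CPM in MEF, adjusted p = 0.00405). At day 10 against MEF 0 were higher and 2, Cxcl16 and Ccl2, lower (median 0.00 beside 0.00). There 16.0% of all genes were called, so the count says nothing particular of this list. Ccl21a, Ccl21b and Ccl22 had no count in any MEF or iTEC library and passed the filter on low counts through fetal TEC alone. They could not be called at day 2 or day 10 against MEF and could only be higher in fetal TEC. The filter thus partly fixed the counts and medians of this list, and nothing is read from them. Fetal TEC had 8 higher and 1 lower than MEF (median 6.63, or 5.32 with bounds, beside 0.18), and day 10 had 1 higher and 7 lower than fetal TEC (median -4.19 beside -0.10), where 57.8% and 59.3% of all genes were called. The last 8 include Cxcl14, higher at day 10 (68.4, 67.8 and 64.9 CPM against 0.781 and 0.304 CPM in fetal TEC, adjusted p = 0.000206), and Cxcl10 (adjusted p = 0.000111), Cxcl16 (0.000434) and Ccl21b (0.000676), lower there. Ccl21b, like Ccl19 a ligand of Ccr7, had 298 and 543 CPM in fetal TEC and no count in any other library, and its close copies make its level uncertain as that of a single gene.

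The 12 other thymocyte support signals had 1 call, higher, at day 2 against MEF (median 1.49 beside 0.00), beside 5.52% of all genes called. That call was the Notch ligand Dll4, at 25.1 and 30.4 CPM against no count in MEF (adjusted p = 0.000146). At day 10 against MEF 4 were higher and 1 lower (median -0.74 beside 0.00), beside 16.0% of all genes called. The leading calls were Jag2 (8.67 ± 0.57, adjusted p = 3.21e-05), Dll4 (101, 96.4 and 104 CPM, adjusted p = 3.93e-05), Wnt4 (3.39 ± 0.32, adjusted p = 0.000173) and Bmp4 (1.80 ± 0.48, adjusted p = 0.0333). Against fetal TEC 5 of 12 were higher and 2 lower at day 10 (median -0.38 beside -0.10), a share like the 59.3% of all genes called there, so the count says nothing particular of this list. The 4 with the smallest p were Dll1 (-6.41 ± 0.71, adjusted p = 0.00016), Jag1 (6.79 ± 1.34, adjusted p = 0.00276), Bmp4 (2.37 ± 0.50, adjusted p = 0.00376) and Tgfb1 (1.64 ± 0.38, adjusted p = 0.00593). Dll4, like Ccl25, was thus called higher than in MEF at both days.

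Interferon-induced genes are given beside the day 2 levels of Il15 and Il7, the iTEC group in which both were highest. Of 10 such genes 8 were called higher and 0 lower at day 2 against MEF (median 5.31 beside 0.00), beside 5.52% of all genes called. At day 10 against day 2, 0 were higher and 10 lower (median -4.81 beside 0.02), beside 12.6% of all genes called. Their sum was 6484 and 6140 CPM at day 2, 239 to 331 CPM at day 10 and 2795 and 3218 CPM in fetal TEC, against 147 and 277 CPM in MEF. Irf7 had 636 and 643 CPM at day 2 against 6.29 and 10.1 CPM in MEF (6.29 ± 0.40, adjusted p = 8.76e-05). The part of this response in the levels of Il15 and Il7 was not tested.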

How the data were processed

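RNA of 13 mouse libraries was sequenced. The authors deposited 1 table of unscaled counts, with genes listed by symbol. FastQC, Trimmomatic, HISAT2, SAMtools, StringTie, DESeq2 and mm10 are named per the submitters' processing notes. Versions, the use of strand and the treatment of reads with several matches are not given in the sources used here. Columns named No_Cre were taken as the MEF group, the one group that name can mean among the labels. The table has 24394 genes, 4044 of them at 0 in every library, and 0 columns of other samples.

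The test was edgeR 4.0.16 in R 4.3.3, with TMM factors (0.7053 to 1.156), filterByExpr by group (17004 genes kept), a single robust quasi-likelihood model in which each group had its own mean (common dispersion 0.296), an F test for each of 9 comparisons and Benjamini-Hochberg adjustment over all tested genes, with calls at an adjusted p under 0.05. The steps were tested on simulated data. The shared spread includes the wide Epcam+ pair. CPM use TMM factors, and CPM per kilobase the longest GENCODE M21 transcript, known for 95.8% of symbols. Libraries held 35805780 to 86465460 counts. Floors (3 counts) cover counting error only, while the standard errors also hold the spread between libraries estimated in the fit. Named genes are the 7 members, Foxn1, up to 4 genes of a list and comparison by smallest p, and the 3 genes most like each member (at least 5 CPM in their highest group). Epcam, Cd3e, Dcn, Xist and 4 summed Y-linked genes were given as checks of cells and labels, and Kit with its ligand, after their values were seen. Other list genes named for their 0 counts or their part in a sum were chosen after their values were seen as well. The members and lists were chosen with earlier results of these data known. Alternatives were DESeq2 1.42.0 size factors, no filter, the DESeq2 Wald test, only the 2 groups compared, a replicate block, an offset for each library's trend with transcript length (lowess span 0.3), omission of the 3 libraries with few reads of long transcripts, and each library left out in turn. Tables and plots were made in Python 3.11.15 (pandas 2.3.3, matplotlib 3.10.9).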

Additional observations from a re-analysis of the deposited data

How the results depend on the processing

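Of the results for single genes under all alternatives, 941 kept their direction and side of the threshold, 78 lost a call, 31 gained one and 12 reversed. The cause of these changes was not tested, except that the fit of only 2 groups has fewer samples. The 4 calls at day 10 against MEF and the 4 in Epcam- cells against MEF held in every alternative. No label says that replicate numbers pair samples, and the correlations of same-numbered deviations ran from -0.158 to 0.0945, so the numbers were not used. With replicate number as a block the genes called were 1 at day 2 against MEF, 1 at day 10 against day 2 and 3 in Epcam+ cells against fetal TEC, and over all genes 391 at day 2 against MEF, 1040 at day 10 against MEF, 831 at day 10 against day 2, 1036 in Epcam+ and 915 in Epcam- cells against MEF, 1 in Epcam+ against Epcam- cells and 3576 in Epcam+ cells against fetal TEC.

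Over all genes the main counts in these 7 comparisons, in that order, were 938, 2720, 2151, 3455, 2025, 44 and 6052, and fetal TEC gave 9831 against MEF and 10085 against day 10. The DESeq2 Wald test called 2317, 4365, 3722, 6342, 3770 and 1794 in the first 6, and 4 of the 6 tested members in Epcam+ against Epcam- cells, against 0. Fits of only the 2 groups compared called 2949, 7959, 10927, 0, 4996, 0 and 219, and none of the members in Epcam+ cells against MEF or fetal TEC (0 and 0), where 2 libraries of unlike level are the spread. Without the 3 libraries with few reads of long transcripts the first 6 counts were 6438, 9231, 8373, 6572, 8671 and 1651, with 5 members at day 2 against MEF and 1 in Epcam+ against Epcam- cells, and no value for fetal TEC. Without the filter 24 genes were called in Epcam+ against Epcam- cells.

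With each library left out in turn, members called ranged over 0 to 5 at day 2, 4 to 4 at day 10, 2 to 5 in Epcam+, 4 to 4 in Epcam- and 3 to 6 in fetal TEC against MEF, 1 to 5 at day 10 against day 2, 0 to 4 in Epcam+ against Epcam- cells, and 5 to 6 at day 10 and 3 to 6 in Epcam+ cells against fetal TEC. All genes called ranged, in the same order, over 299 to 3718, 1028 to 6650, 669 to 10819, 719 to 5897, 5507 to 12611, 564 to 5792, 0 to 9545, 7877 to 12919 and 3829 to 10273.

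Reversed log2 changes were Kitl in fetal TEC against MEF with the length offset (0.99), Ccl25 in Epcam+ against Epcam- cells without the 3 libraries (-0.53) or with single libraries left out (-0.49 to 3.08), and Ccl25 in Epcam+ cells against fetal TEC with single libraries left out (-1.64 to 1.93). Over the fits that leave out 1 library, Il7 also changed sign in Epcam+ cells against MEF (-9.20 to 1.79) and against Epcam- cells (-9.77 to 1.22). The lowest value of both ranges is a fitted number for 1 Epcam+ library at 0 counts and no bound. At its limit of 0.0770 CPM, which covers counting error only, that library lay at least 16.0-fold lower than MEF. Against Epcam- cells it lay at least 23.6-fold lower. Il15, called in none of these comparisons with MEF or Epcam- cells, did so at day 10 against MEF (-0.51 to 0.16), in Epcam+ cells against MEF (-1.22 to 0.067) and Epcam- cells (-1.02 to 0.27, and 0.16 without Epcam- replicate 2), and in Epcam- cells against MEF (-0.61 to 0.15, and 0.11 without Epcam- replicate 1). Groups of 2 or 3 libraries limit the precision, and depth limits what 0 counts of Ccl19 and Il7 allow.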
